A study of Homo sapiens with 9 samples.

Results

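Cells detect foreign nucleic acid with a small set of proteins, and the levels of their mRNAs were followed here in T47D breast cancer cells. The set has 10 genes, taken by symbol. They are the RNA helicases RIGI, IFIH1 and DHX58, the endosomal receptor TLR3 and the adaptors MAVS and STING1. The others are the DNA sensor CGAS, ZBP1, which binds Z-form nucleic acid, and the kinases TBK1 and IKBKE. Each of the 10 had 1 probe set with that symbol alone, so no choice between probe sets was needed, out of 18417 genes with a single-symbol probe set. The rule uses symbols and no measured value, but the set was proposed with earlier results of these data known. In the opening comparison, progestin against vehicle, 6 of the 10 were called higher and 0 lower. Of all 21214 probe sets tested 13.4% were called higher and 15.6% lower. The RNA sensors RIGI, DHX58, IFIH1 and TLR3 rose the most, by 4.28-fold to 7.28-fold. The other members moved far less: MAVS and IKBKE rose by 1.41-fold and 1.34-fold, and CGAS, STING1, TBK1 and ZBP1 did not pass the test.

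RIGI, IFIH1 and DHX58 (also called RIG-I, MDA5 and LGP2) bind double-stranded RNA in the cytosol, and RIGI and IFIH1 then engage MAVS on mitochondria, while TLR3 reads double-stranded RNA in endosomes. CGAS binds DNA in the cytosol and makes a cyclic dinucleotide that STING1 receives on the endoplasmic reticulum. Both routes lead to the kinases TBK1 and IKBKE, which phosphorylate IRF transcription factors and so switch on interferon genes, and several sensor genes are themselves induced by interferon.

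All samples were the line T47D-pHUSH-Elf5-shRNA. T47D is an established human luminal breast cancer line, here made receptive to retrovirus and carrying a retroviral vector; its hairpin, switched on by doxycycline, targets the mRNA of ELF5, an ETS transcription factor. The vehicle group received ethanol, the progestin group 10 nM ORG2058, a synthetic progestin that the labels call progesterone, for 4 days. The progestin plus doxycycline group received the same ORG2058 dose and, over the same days, doxycycline at 0.1 µg/ml. Each group has 3 arrays, each from cells pooled from 3 wells, and all cells were grown with insulin and kept under puromycin. The labels give neither the vehicle group's time in culture nor whether the line is 1 clone. They name no doxycycline treatment without progestin and no control hairpin, so an effect of doxycycline itself and of the fall in ELF5 cannot be told apart. In bulk RNA, fewer cells with a message and less message per cell cannot be told apart either.

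The promoters of the 3 most strongly induced sensors with an entry in the RefSeq promoter table (GRCh38.p14), and that of TBK1 for contrast, are shown so that interferon-type motifs can be read in place. Of the 10 genes 6 have an entry: RIGI, IFIH1, TLR3, MAVS, TBK1 and IKBKE. Each stretch runs 5′ to 3′ on the gene's strand, from 250 bases before to 50 bases after the annotated start, and capitals mark matches to the core of the interferon-stimulated response element (GAAA, any 2 bases, then GAAA, on either strand). The windows are chr9:32526147-32526446 (minus strand) for RIGI, chr2:162318635-162318934 (minus) for IFIH1, chr4:186068906-186069205 (plus) for TLR3 and chr12:64451870-64452169 (plus) for TBK1.
RIGI: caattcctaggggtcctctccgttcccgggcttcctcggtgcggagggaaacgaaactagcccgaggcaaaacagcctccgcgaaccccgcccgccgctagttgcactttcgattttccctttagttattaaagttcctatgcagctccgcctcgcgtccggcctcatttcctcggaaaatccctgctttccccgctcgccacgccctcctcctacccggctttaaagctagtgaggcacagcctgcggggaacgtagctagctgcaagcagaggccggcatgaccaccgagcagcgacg
IFIH1: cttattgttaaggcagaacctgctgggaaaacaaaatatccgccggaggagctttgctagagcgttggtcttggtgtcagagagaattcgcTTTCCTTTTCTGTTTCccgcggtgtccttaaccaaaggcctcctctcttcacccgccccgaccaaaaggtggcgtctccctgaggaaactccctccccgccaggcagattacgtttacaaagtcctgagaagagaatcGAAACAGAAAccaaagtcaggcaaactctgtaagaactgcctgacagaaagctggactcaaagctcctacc
TLR3: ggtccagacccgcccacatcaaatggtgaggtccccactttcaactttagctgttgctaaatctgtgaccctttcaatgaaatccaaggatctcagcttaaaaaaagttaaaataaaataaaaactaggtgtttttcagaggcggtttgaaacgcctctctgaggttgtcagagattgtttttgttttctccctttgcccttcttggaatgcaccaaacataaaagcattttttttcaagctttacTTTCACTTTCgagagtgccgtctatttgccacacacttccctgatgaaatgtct
TBK1: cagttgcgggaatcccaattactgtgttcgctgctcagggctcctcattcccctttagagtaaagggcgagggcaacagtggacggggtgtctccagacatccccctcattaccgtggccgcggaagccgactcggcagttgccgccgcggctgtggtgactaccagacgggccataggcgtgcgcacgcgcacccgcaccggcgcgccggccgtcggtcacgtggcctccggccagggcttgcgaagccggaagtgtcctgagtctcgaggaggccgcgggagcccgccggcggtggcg

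IFIH1 had 3 matches to this core, of which the 2 farther from the start overlap each other, and TLR3 had 1 that spans the start. A match was present in 2 of the 6 member promoters and in 3.57% of all 35116 promoters of this length. The STAT-type motif TTCNNNGAA had 2 matches in TLR3 and none in the other 5, and is held by 7.66% of all promoters. The hormone receptor half-site pair ACANNNTGT matched 0 of the 6 (5.37% of all). The ETS motif AGGAAG matched RIGI and IKBKE (33.6% of all). Only this form of an ETS motif was searched for, so a promoter without it may hold another form. The closer-spaced GAAANGAAA, searched for only after the sequences were seen, matched RIGI alone of the 6, at bases -203 to -195 from the start (3.12% of all promoters). These matches describe letters in a window and say nothing of binding.

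Levels are deposited log2 values per probe set, and the array medians of probe sets with a symbol ranged from 7.19 to 7.28. Changes were tested with limma over 21214 probe sets with a gene symbol, and called at a Benjamini-Hochberg adjusted p under 0.05. SE is the standard error of a log2 change, and intervals are 95% confidence intervals from the same fit. ELF5, the hairpin's target, was at 10.17 ± 0.109, 11.28 ± 0.0455 and 10.42 ± 0.0608 (log2, mean ± SD, n = 3) with vehicle, progestin and progestin plus doxycycline, and its change when doxycycline was added was -0.87 (limma, adjusted p = 0.029). That call was lost in 8 of the 9 fits with 1 array left out, all but the one without vehicle replicate 3. The lowest mean of the 8 luminal markers (KRT8, KRT18, KRT19, EPCAM, GATA3, FOXA1, ESR1 and PGR) in any group was 8.38. With progestin 1 of the 8 was called higher (KRT19, by 0.46), where 13.4% of all probe sets were. Another 3 were called lower, where 15.6% of all were: the progesterone receptor PGR by a log2 change of -2.28, GATA3 by -0.51 and ESR1 by -0.50. Of 15 immune, endothelial and fibroblast markers 14 were measured, with summed linear levels of 1522 to 1768 with vehicle, 1673 to 1798 with progestin and 1601 to 1847 with doxycycline added. Their levels differed widely: the endothelial marker CDH5 had means of 9.08, 9.38 and 9.36 with vehicle, progestin and progestin plus doxycycline, the fibroblast marker COL1A1 8.60, 8.17 and 8.43, and the immune marker PTPRC 3.39, 3.57 and 3.06. The fibroblast marker LUM read 2.86, 2.48 and -10.32 with progestin. With progestin 2 of the 14 were higher (PECAM1 and CDH5), beside 13.4% of all probe sets, and 1 was lower (COL1A1), beside 15.6%. The part of such cells in the results below was not tested.

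**Figure D1:**
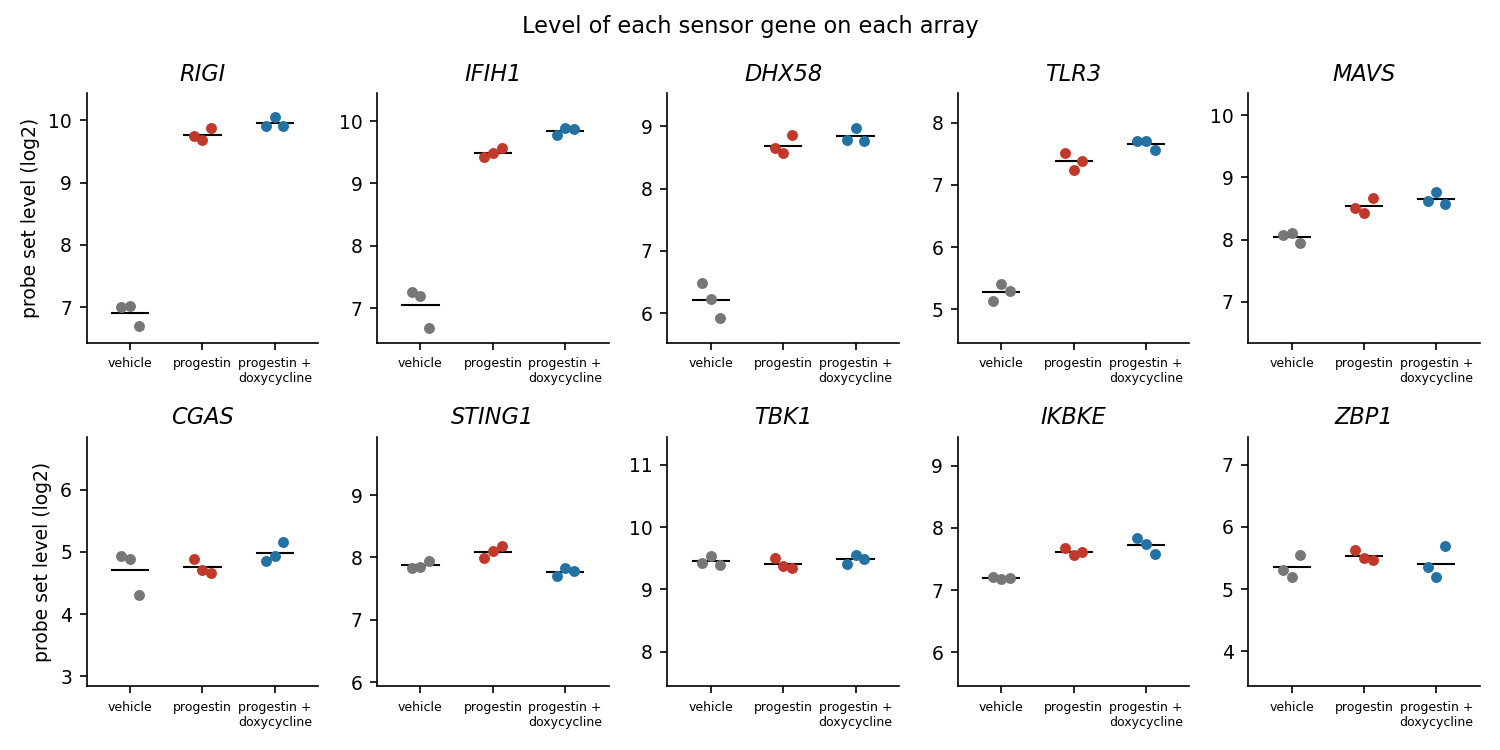
Probe set level (log2, y axis) of each of the 10 genes on each of the 9 arrays, with a horizontal bar at the group mean of 3 arrays; every panel spans 4 log2 units and levels are not comparable between genes. RIGI, IFIH1, DHX58 and TLR3 stand at least 1.82 log2 units higher on every progestin array than on any vehicle array, while CGAS, TBK1 and ZBP1 overlap between these groups.

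Progestin against vehicle asks how the hormone changed the sensors. Of the 10 members 6 rose and 0 fell, where 13.4% of all probe sets tested rose and 15.6% fell. The members' median log2 change was 0.46, beside 0.02 over all probe sets. For 7 members every progestin array lay above every vehicle array, the pattern of 20.8% of all probe sets.

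RIGI, which recognises viral RNA by its end structure, read 7.00, 7.02 and 6.69 on the vehicle arrays and 9.74, 9.68 and 9.88 on the progestin arrays (probe set 8160559, log2). The 2 groups were separated by 2.66 log2 units, against SDs of 0.185 and 0.101 within them. RIGI rose 7.28-fold (log2 change 2.86, SE 0.11, interval 2.62 to 3.11, adjusted p = 8.24e-07). Only 104 of the 21214 probe sets, 0.490%, had a higher change.

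IFIH1, the sensor of long double-stranded RNA, read 7.26, 7.19 and 6.68 with vehicle and 9.42, 9.49 and 9.57 with progestin (probe set 8056285). Vehicle replicate 3 was the lowest array by a clear margin, and the groups did not overlap. The rise was 5.46-fold (log2 change 2.45, SE 0.15, adjusted p = 9.19e-06), and the change was 2.27 without vehicle replicate 3. That array was also the lowest vehicle array for RIGI, DHX58, MAVS, CGAS and TBK1, but not for TLR3, STING1, IKBKE or ZBP1.

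DHX58, a helicase without the signalling domain of the other 2 that tunes their activity, read 6.49, 6.23 and 5.93 with vehicle and 8.65, 8.57 and 8.85 with progestin (probe set 8015511). Its vehicle arrays spread more widely than its progestin arrays, with SDs of 0.281 and 0.147, but no vehicle array came near the progestin arrays. The rise was 5.56-fold (log2 change 2.47, SE 0.15, adjusted p = 8.95e-06). The intervals of IFIH1, 2.11 to 2.79, and DHX58, 2.14 to 2.81, nearly coincide, so their order is not settled.

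TLR3, the endosomal receptor, read 5.14, 5.41 and 5.29 with vehicle and 7.51, 7.23 and 7.39 with progestin (probe set 8098611). All 3 progestin arrays lay above all 3 vehicle arrays, by at least 1.82. TLR3 rose 4.28-fold (log2 change 2.10, SE 0.10, interval 1.87 to 2.33, adjusted p = 3.18e-06). Its interval lies below that of RIGI and overlaps those of IFIH1 and DHX58.

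The shared adaptor and kinases had changes of 0.50 or less. MAVS, the mitochondrial adaptor of RIGI and IFIH1, read 8.07, 8.11 and 7.95 with vehicle and 8.51, 8.44 and 8.68 with progestin (probe set 8060705). The groups were apart by 0.33, and MAVS rose 1.41-fold (log2 change 0.50, SE 0.09, interval 0.29 to 0.71, adjusted p = 0.00417). IKBKE, the inducible relative of TBK1, read 7.21, 7.18 and 7.19 with vehicle and 7.68, 7.57 and 7.61 with progestin (probe set 7909188). Its vehicle arrays agreed closely, with an SD of 0.0156, and it rose 1.34-fold (log2 change 0.42, SE 0.08, interval 0.24 to 0.61, adjusted p = 0.00494). A separate probe set for the antisense RNA IKBKE-AS1 had a change of 0.10 (SE 0.16, adjusted p = 0.674). TBK1, the constitutive kinase of both routes, read 9.42, 9.54 and 9.39 with vehicle and 9.51, 9.38 and 9.35 with progestin (probe set 7956795). These groups overlap, and the log2 change of -0.04 (SE 0.08, interval -0.22 to 0.14, adjusted p = 0.772) limits a fall or rise to within those bounds.

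CGAS and STING1 of the DNA route, and ZBP1, gave no call. CGAS, the enzyme that senses DNA, read 4.93, 4.88 and 4.30 with vehicle and 4.88, 4.70 and 4.66 with progestin (probe set 8127534). The groups overlap throughout, and the log2 change was 0.05 (SE 0.17, interval -0.35 to 0.44, adjusted p = 0.875). ZBP1, which binds Z-form nucleic acid and can trigger necroptosis, read 5.30, 5.20 and 5.55 with vehicle and 5.63, 5.50 and 5.47 with progestin, with a change of 0.18 (probe set 8067221, SE 0.14, interval -0.15 to 0.51, adjusted p = 0.397). CGAS and ZBP1 lie among the dimmest 25% of the tested probe sets, while 8 of the 10 members lie above that level. For such dim probe sets no call does not show an unchanged level. STING1, the receptor of the CGAS product, read 7.83, 7.85 and 7.94 with vehicle and 8.00, 8.11 and 8.18 with progestin (probe set 8114536). Its progestin arrays all lay above its vehicle arrays, by 0.06 at the closest, and the change of 0.22 (SE 0.08, interval 0.05 to 0.40) had an adjusted p of 0.0613. It was called at an adjusted p of 0.0414 once the dimmest 25% of probe sets were dropped, and of 0.0129 with array weights. Those fits also called more of all probe sets, 6534 (of fewer tested) and 9502, where the main fit called 6161.

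**Figure D2:**
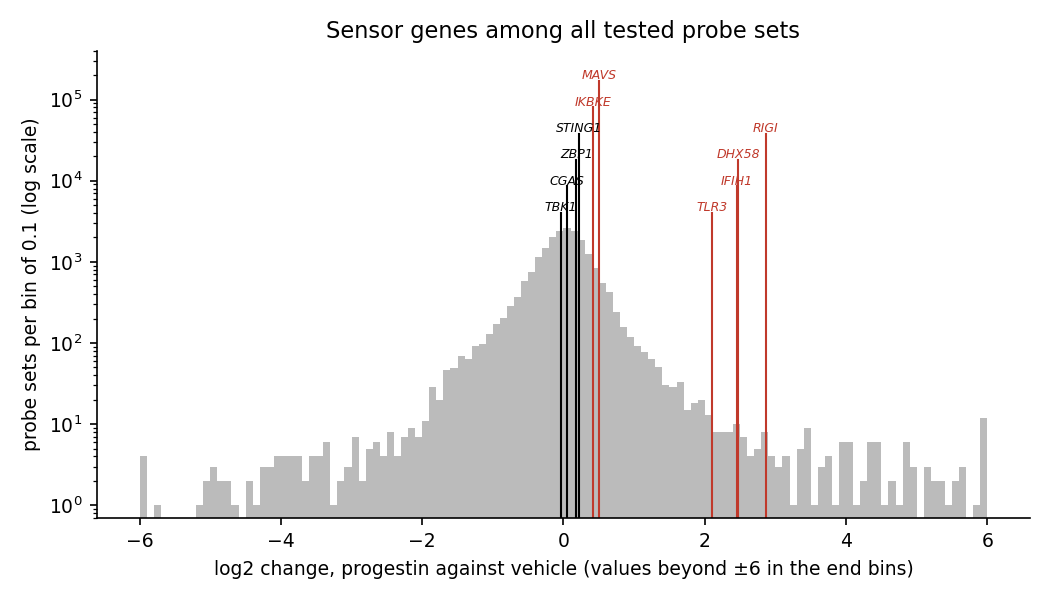
Number of probe sets (y axis, log scale) by log2 change of progestin against vehicle (x axis, bins of 0.1) for all 21214 tested probe sets, with a line at each of the 10 members, red where called higher. RIGI, DHX58, IFIH1 and TLR3 lie in the sparse upper tail, with 0.750% of probe sets above TLR3. The other 6 lie within the body of the distribution. MAVS, the highest of these 6, ranks 2079 from the top, and 12.5% of probe sets lie above IKBKE.

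The 3 genes whose values over the 9 arrays lay nearest to each called member, after each gene's vehicle mean was subtracted, were found among 18416 other genes. For RIGI they were SDR16C5, OAS3 and ACSL1, at root mean square differences of 0.10, 0.12 and 0.12 log2 units, where the median gene was at 2.42. For IFIH1 they were HELZ2 (0.11), HERC6 (0.14) and the member DHX58 (0.14). For DHX58 they were PXYLP1 (0.08), SP100 (0.11) and PLSCR1 (0.12), and for TLR3 HILPDA (0.09), KRTAP5-AS1 (0.10) and KCNC4 (0.11). MAVS lay nearest to TRAPPC6B (0.03), ABHD5 (0.04) and TMEM179B (0.04), and IKBKE to NSF, KRT19 and CA12 (0.06 each). With 3 groups, such nearness mostly reflects 2 group differences and is a description only.

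Adding doxycycline to progestin asks whether inducing the ELF5 hairpin changed the sensors. None of the 10 members passed limma's test, which called 4 of 21214 probe sets, or 0.0189%. Of the members 3 had an unadjusted p under 0.05 (14.0% of all probe sets did): STING1, TLR3 and IFIH1. For RIGI, IFIH1 and TLR3 every array with doxycycline lay above every array with progestin alone, the pattern of 14.8% of probe sets. For STING1 every such array lay below, the pattern of 6.43%.

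IFIH1 read 9.77, 9.90 and 9.88 with doxycycline added, against 9.42 to 9.57 with progestin alone, a log2 change of 0.35 (SE 0.15, interval 0.02 to 0.69, adjusted p = 0.342). TLR3 read 7.70, 7.70 and 7.57, against 7.23 to 7.51, a change of 0.28 (SE 0.10, interval 0.04 to 0.51, adjusted p = 0.294). RIGI read 9.90, 10.05 and 9.92, its groups apart by only 0.03, with a change of 0.19 (SE 0.11, adjusted p = 0.479). These changes were 0.19 to 0.35, beside rises of 2.10 to 2.86 for the same genes with progestin.

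STING1 read 7.70, 7.84 and 7.78 with doxycycline added, where progestin alone gave 8.00, 8.11 and 8.18. The groups were apart by 0.16, and the log2 change was -0.32 (SE 0.08, interval -0.50 to -0.15, unadjusted p = 0.00285, adjusted p = 0.156). Over the 18 alternative settings and left-out arrays this change lay between -0.37 and -0.28 and its adjusted p between 0.0814 and 0.370. It had the smallest p of the 10 members in this comparison, and was singled out after its value was seen.

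DHX58 read 8.77, 8.97 and 8.77 with doxycycline added (change 0.14, interval -0.19 to 0.48), and MAVS 8.62, 8.77 and 8.58 (0.11, interval -0.10 to 0.33). IKBKE read 7.85, 7.75 and 7.59 (0.11, interval -0.07 to 0.30) and TBK1 9.41, 9.55 and 9.49 (0.07, interval -0.11 to 0.25). CGAS read 4.85, 4.93 and 5.16 (0.23, interval -0.16 to 0.62) and ZBP1 5.35, 5.19 and 5.69 (-0.12, interval -0.45 to 0.20). All 6 of these genes had overlapping groups, and their adjusted p values were 0.591 or more.

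Progestin plus doxycycline against vehicle gives the hormone response with the hairpin induced, and it shares its vehicle arrays with the opening comparison. RIGI, IFIH1, DHX58, TLR3, MAVS and IKBKE rose, 6 of 10 members where 15.6% of probe sets rose and 12.5% fell, and 0 members fell. RIGI rose 8.30-fold (log2 change 3.05, SE 0.11, adjusted p = 5.54e-07), beside 7.28-fold without doxycycline. IFIH1 rose 6.99-fold beside 5.46-fold, DHX58 6.14-fold beside 5.56-fold and TLR3 5.19-fold beside 4.28-fold. MAVS rose 1.53-fold beside 1.41-fold and IKBKE 1.45-fold beside 1.34-fold. Each pair differs by the doxycycline change given above, which was not called for any of them. STING1 was at -0.10 (SE 0.08, adjusted p = 0.416), TBK1 at 0.03 (0.820), CGAS at 0.28 (0.294) and ZBP1 at 0.06 (0.825).

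**Figure D3:**
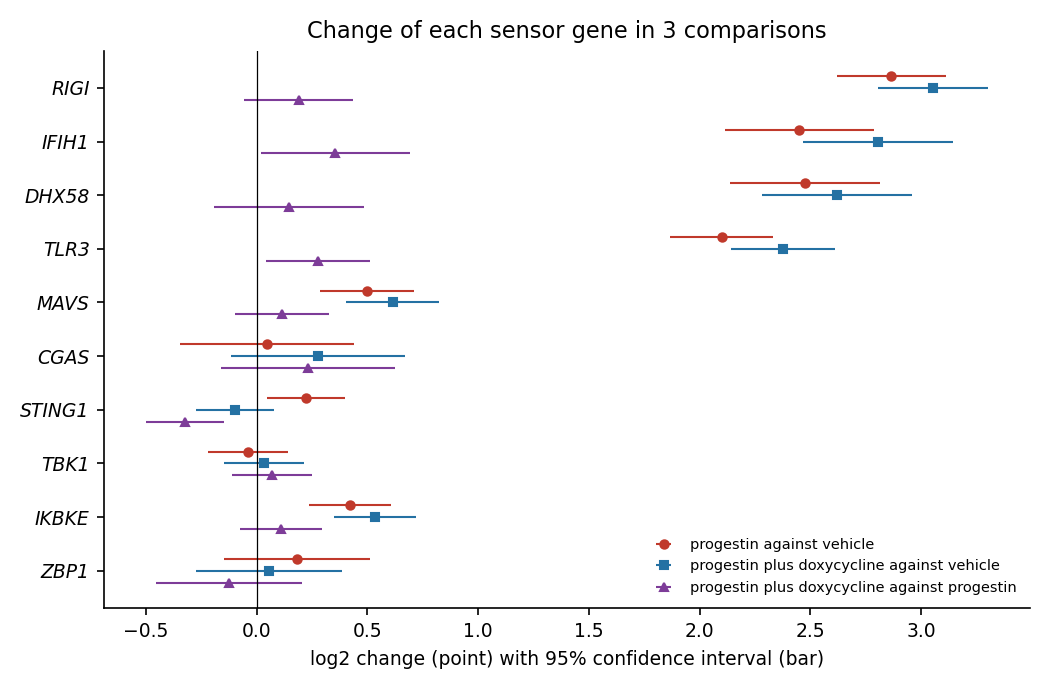
Log2 change (x axis) of each of the 10 genes in the 3 comparisons, with bars for the 95% confidence interval from limma (n = 3 arrays per group). The changes of RIGI, IFIH1, DHX58 and TLR3 against vehicle lie at 2.10 or above with or without doxycycline, and all changes between the 2 progestin groups lie between -0.32 and 0.35.

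Other genes of nucleic acid sensing were followed in 6 lists of 88 genes, of which 78 had a single-symbol probe set. With progestin 27 of the 78 rose (34.6%, where 13.4% of all probe sets did) and 10 fell (12.8%, where 15.6% did), so the share that fell was near the background. With doxycycline added to progestin 0 changed by limma's test, which called 4 of all probe sets, and 11 had an unadjusted p under 0.05 (14.1%, near the 14.0% of all). Genes named here beyond the 4 of smallest p in each list were added after their values were seen: AIM2, DDX41, TOMM70, ENPP1, RNASEH2C, TRAF3, TRAF5, IRF3, NFKB1 and IFNB1.

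Among 12 other sensors 4 rose (33.3%, beside 13.4% of all probe sets) and 2 fell (16.7%, beside 15.6%), with a median log2 change of 0.00. DDX60, a helicase that acts with the RIGI family, rose by 3.93 (SE 0.17), ZNFX1, a helicase that binds viral RNA at mitochondria, by 1.89 (SE 0.10) and EIF2AK2, the kinase PKR that halts translation on double-stranded RNA, by 1.20 (SE 0.09). AIM2, a DNA sensor of the inflammasome, was at 0.50 with an adjusted p of 0.0449, and this call was lost in 12 of 17 alternatives, among them each left-out array but vehicle replicate 3. The RNA helicase DHX9 fell by 0.58 on the log2 scale, and the helicase DDX41 fell by 0.49.

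Of 13 partners and regulators of RNA sensing 8 rose (61.5%, beside 13.4% of all probe sets) and 1 fell (7.7%, beside 15.6%). The median was 0.62. UNC93B1, the chaperone that carries TLR3 to endosomes, rose by 1.13 (SE 0.09), and ADAR, which edits double-stranded RNA and so keeps self RNA from the sensors, by 1.00 (SE 0.08). ZC3HAV1, an antiviral zinc finger protein, rose by 0.85 (SE 0.07), and TRIM25, a ubiquitin ligase linked to RIGI activation, by 0.62 (SE 0.09). TOMM70, the mitochondrial import receptor that MAVS contacts, fell by 0.40 on the log2 scale.

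Of 11 partners and regulators of DNA sensing 3 rose and 3 fell (27.3% each, beside 13.4% and 15.6% of all probe sets), with a median of -0.01. SAMHD1, which depletes nucleotides needed for viral DNA synthesis, rose by 1.25 (SE 0.07), and the ubiquitin ligase TRIM56 by 0.71 (SE 0.12). ENPP1, which degrades the CGAS product, was at 0.25 with an adjusted p of 0.0441, and the call was lost in 12 of 18 alternatives, among them each of the 9 left-out arrays. RNASEH2A, the catalytic subunit of the enzyme that removes RNA from DNA, fell by 1.12 on the log2 scale, and its partner subunit RNASEH2C fell by 0.32, a call lost in 3 of 18 alternatives: the replicate block, without vehicle replicate 1 and without progestin replicate 1. RNF26, a ubiquitin ligase that acts on STING1, fell by 0.64.

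Of 16 kinase scaffolds and death-domain adaptors 4 rose, where 13.4% of all probe sets did, and 2 fell (12.5%, near the 15.6% of all), with a median of 0.11. The 4 were OPTN, a TBK1-binding autophagy receptor (0.44, SE 0.06), TRADD (0.39, SE 0.08), and RIPK3 and MLKL, the kinase and the effector of necroptosis (0.43 and 0.44, SE 0.10 and 0.11). The ubiquitin ligase TRAF3, which links MAVS to the kinases, was at -0.33 and its relative TRAF5 at -0.49. Each of these 2 calls was lost in 5 of 18 alternatives, among them the replicate block and the fits without vehicle replicate 2 or progestin replicate 2. That of TRAF3 was also lost without vehicle replicate 1, and that of TRAF5 without vehicle replicate 3 or progestin replicate 3.

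Of 11 transcription factors downstream 6 rose (54.5%, beside 13.4% of all probe sets) and 2 fell (18.2%, near the 15.6% of all). The median was 0.30. IRF9, the DNA-binding part of the interferon-induced complex ISGF3, rose by 2.01 (SE 0.12), IRF7, the inducible master of interferon alpha genes, by 1.74 (SE 0.16), IRF1 by 1.25 (SE 0.14) and JUN by 1.01 (SE 0.14). IRF3, the main substrate of TBK1 in this pathway, fell by 0.36 on the log2 scale (SE 0.06, adjusted p = 0.0037), and NFKB1 fell by 0.66 (SE 0.11, adjusted p = 0.00219).

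Of 15 interferon and chemokine outputs, with a median of 0.25, 2 rose and 0 fell. The 13.3% that rose is near the 13.4% of all probe sets. The 2 were the chemokines CCL5 (1.47, SE 0.16) and CXCL10 (1.15, SE 0.16). The interferon genes gave no call. Most of their probe sets, that of IFNB1 among them, lay among the dimmest 25%, where no call does not show an unchanged level. IFNB1, the first interferon made after sensing, had means of 2.10 ± 1.49 with vehicle and 3.44 ± 0.375 with progestin (log2, SD, n = 3), and its change of 1.34 (SE 0.64) had an adjusted p of 0.161, with 0.33 on the scale where 16 is added to the linear values. IFNB1 was called in 2 of 17 alternatives, with array weights (1.28, adjusted p = 0.0414) and without vehicle replicate 3 (2.05, adjusted p = 0.0177). CXCL10 also lies among the dimmest 25% of probe sets, and its change was 0.61 on that scale.

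**Figure D4:**
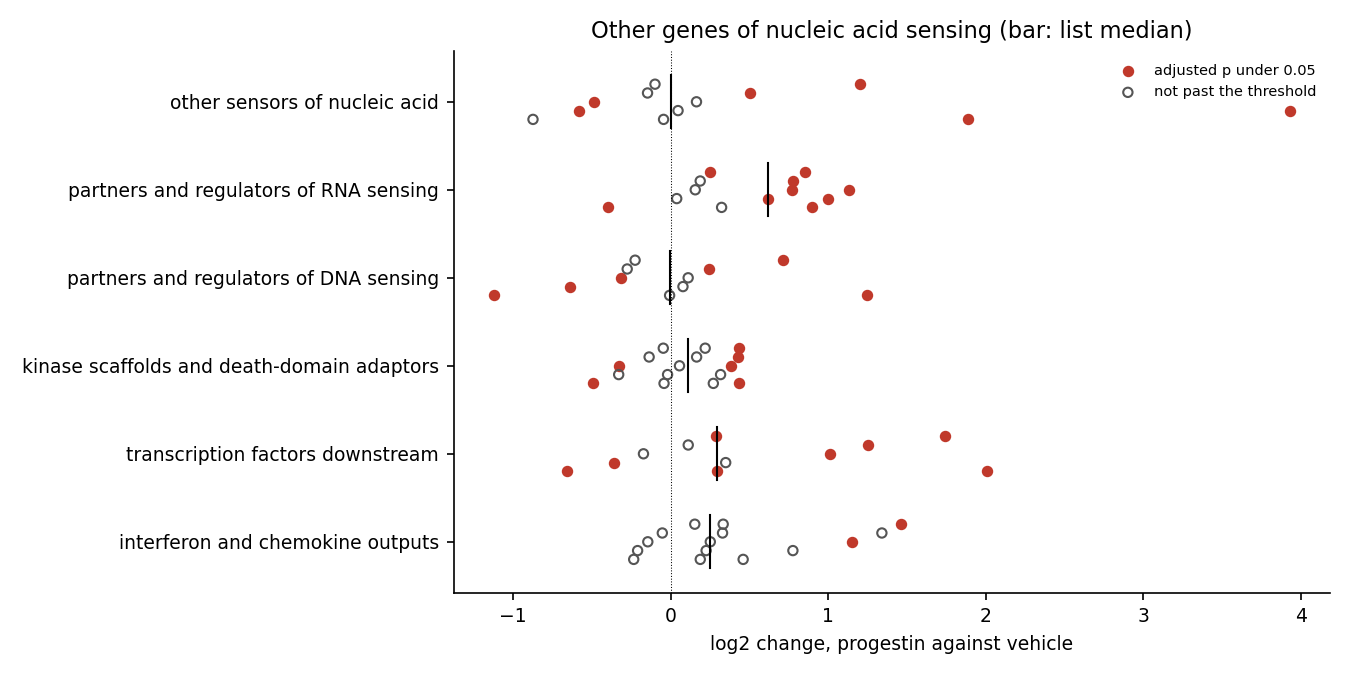
Log2 change of progestin against vehicle (x axis) for the 78 measured genes of 6 lists (rows), filled red where the adjusted p was under 0.05, with a bar at the list median. Medians run from -0.01 for partners of DNA sensing to 0.62 for partners of RNA sensing, and DDX60 lies farthest to the right at 3.93.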

How the data were processed

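RNA of 9 T47D-pHUSH-Elf5-shRNA samples was measured on Affymetrix human gene arrays, 3 per group, with groups and replicate numbers taken from the sample titles. The authors deposited 1 log2 value per probe set and array for 33297 probe sets. Tools in the submitters' processing notes are PLIER, limma, Affymetrix Expression Console and Affymetrix Power Tools, without role or version. Names for the background correction, the normalization between arrays and the genome build were not given in the sources used here. A log2 scale was read from the values, whose lowest, -16.61, was shared by all arrays and whose highest was 14.30. No member value lay below 0, the lowest being 4.30.

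Symbols came from the platform annotation. All 21214 probe sets carrying a symbol entered 1 limma fit (limma 3.58.1, R 4.3.3) of the 9 arrays with group means, eBayes variances and Benjamini-Hochberg adjustment. The fit was tested on simulated data with independent normal values, no array effects and far fewer changed probe sets than were called here. That setting differs from these data, so it does not show how the fit behaves on them. A gene with several single-symbol probe sets is given by the one with the highest mean. Exact permutation of 3 against 3 arrays cannot give a p under 0.1. P-values rest on the spread between these samples, which the design text calls independent experiments. The rule for names takes all members, up to 4 genes of each list with the smallest p among those past the threshold in progestin against vehicle, and the 3 nearest genes. The members and lists were chosen with earlier results of these data known. Array number limits the precision. Deviations of same-numbered arrays from their group means, over 10607 brighter probe sets, correlated at r from -0.26 to 0.48, over 0.1 in 3 of 9 pairs. Differently numbered arrays correlated at -0.51 to 0.28. Vehicle and progestin plus doxycycline arrays numbered 2 and 3 gave 0.48 and 0.46, and those numbered 1 gave -0.10. The main fit did not take the numbers as pairing, but pairing between these groups was not excluded. A fit with the replicate number as a block is given below.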

Additional observations from a re-analysis of the deposited data

How the results depend on the processing

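Across 9 alternative settings and each of the 9 arrays left out, 6 members were called for progestin against vehicle, except 7 once the dimmest 25% of probe sets were dropped and 7 with array weights, where STING1 was added. Those called for progestin plus doxycycline stayed 0 against progestin and 6 against vehicle. RIGI, IFIH1, DHX58, TLR3, MAVS and IKBKE were called in all 18 fits of both comparisons with vehicle. Only members that were not called changed sign. For progestin against vehicle, CGAS was at -0.035 with quantile normalization and -0.10 with array weights, and between -0.15 (without vehicle replicate 3) and 0.16 (without vehicle replicate 1) with 1 array left out. TBK1 was at 0.018 with quantile normalization and 0.017 with array weights, and between -0.085 (without progestin replicate 1) and 0.0090 (without vehicle replicate 2). For progestin plus doxycycline against vehicle, ZBP1 was at -0.0081 with quantile normalization, and between -0.084 (without progestin plus doxycycline replicate 3) and 0.17 (without progestin plus doxycycline replicate 2). The cause was not tested.

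Over all probe sets, 6161 calls for progestin against vehicle became 9502 with array weights. They became 6534, of fewer probe sets tested, once the dimmest 25% were dropped. The 4 calls for doxycycline added to progestin became 158 once the dimmest 25% of probe sets were dropped, 530 with robust estimation and a variance trend, 15 on the scale with 16 added, 8 with array weights, 12 over all probe sets of the table, and 0 in a fit of only the 2 groups. With the replicate number as a block they became 0, and the members called stayed 6, 0 and 6. They were 0 to 2 with 1 array left out. The fall of ELF5 was called in 1 of those 9 fits, without vehicle replicate 3. Pathway list counts moved by over 1.5 times in 12 of 324 cases. Of 2 interferon and chemokine outputs called for progestin against vehicle, 1 was called once the dimmest 25% were dropped and 4 with array weights.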
